A study of Mus musculus with 2 samples.

Results

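Fibroblast growth factor (FGF) ligands, their receptors and the genes that damp the signal were followed in cultured mouse lung fibroblasts with and without stimulation. Members were 9 genes taken by symbol: the ligand genes Fgf2, Fgf7 and Fgf10, the receptor genes Fgfr1 and Fgfr2, and the feedback genes Spry1, Spry2, Spry4 and Dusp6. They are 9 of 27998 genes listed in the files, and all 9 were listed once and detected in both libraries. Cells of dissociated wild-type C57BL/6 lungs were plated whole and grown to passage 3 in medium with 10% FBS. Per the protocol they then had 14 days of stimulation (the stimulated library) or, for cells of the same lung, of vehicle in the same medium (the control library). The agents, used 1 at a time or mixed, were 10 µM rosiglitazone, an agonist of the nuclear receptor PPARG, 1 µM SB4315442 and 4 µM of the growth factor rhBMP4. Which of them the stimulated library received is not given in the sources used here, nor is whether these cultures had the supplement ITS+3, which the protocol adds at 1% for a lipofibroblast-like state.

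FGFs are secreted proteins that bind heparan sulfate and receptor tyrosine kinases, and the receptors signal through adaptors, RAS and the MAP kinases ERK. ERK activity switches on its own inhibitors: Sprouty proteins act between receptor and RAF, and DUSP6 is a phosphatase that removes the activating phosphates from ERK. In lung, fibroblasts make Fgf7 and Fgf10, which act on the epithelium through the epithelial splice form of FGFR2, and Fgf10 marks mesenchyme from which lipofibroblasts arise during development. Other receptor tyrosine kinases feed the same cascade, so Sprouty and DUSP6 transcripts are not read-outs of FGF alone.

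Each group is 1 droplet single-cell library, in which the 3′ ends of transcripts were sequenced and molecules counted by unique molecular identifiers (UMIs). The files held 88876791 UMIs from 5016 barcodes for the control and 117381412 UMIs from 7698 barcodes for the stimulated library. Filters kept 4703 and 7468 cells, at a median of 19634 and 15379.5 UMIs. The libraries share 53 barcode sequences, 46 of them among kept cells of both. As neither group has a second library, nothing checks these values between replicates and no test across samples was possible: every interval below is a 95% interval for counting error only, and a fold compares these libraries, not the conditions. Levels are UMIs per 1000000 UMIs (CPM) over all kept cells, and a gene counts as higher or lower at 1.5-fold when the mean of both libraries is at least 5 CPM.

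Fibroblast markers were present in both libraries, with all 12 listed genes detected and a summed level of 10891 CPM in control cells and 4549 CPM in stimulated cells. Of the 15 clusters of the joint clustering, those called fibroblast-like took in 79.1% of the control library (77.9 to 80.3%, exact binomial) and 81.8% of the stimulated one (80.9 to 82.7%). Other cell types differed between the libraries. All 12 macrophage markers were lower in the stimulated library, where Adgre1 was at 0, and their summed level was 746 CPM in control cells and 14.2 CPM in stimulated cells. Of 11 smooth muscle and pericyte markers 8 were lower, at 1291 against 241 CPM in sum. Adipocyte markers summed to 13.9 and 149 CPM and mesothelial markers to 30.5 and 29.4 CPM, and epithelial, endothelial and lymphocyte markers to at most 12.7 CPM in either library. The protocol takes passage 3 cells as free of other cells, while 3.19% of control cells and 0.0134% of stimulated cells fell in a macrophage-like cluster. Whether these shifts in other markers bear on a member was not tested, apart from the values given below by cluster.

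Of the 8 members with a mean of at least 5 CPM, Dusp6 and Spry4 were at least 1.5-fold higher in the stimulated library, Fgf2 and Spry1 at least 1.5-fold lower, and Fgf7, Fgf10, Fgfr1 and Spry2 lay between. Among all 8787 genes compared, 7.75% (681 genes) were that much higher and 12% (1056 genes) that much lower, beside 25% of the 8 members in each direction. With TMM scaling the 8 genes kept these places, and Fgf7 and Fgfr1 crossed 1, at folds of 1.06 and 1.02, while the background split became 10.2% higher and 9.41% lower, since the median log2 fold of all genes moved from -0.06 to 0.04. The median of the 8 members was -0.05. Fgfr2, the remaining member, was below the mean of 5 CPM and is described without a call. Spry4 passed that mean only through the stimulated library and Spry1 only through the control library.

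**Figure D1:**
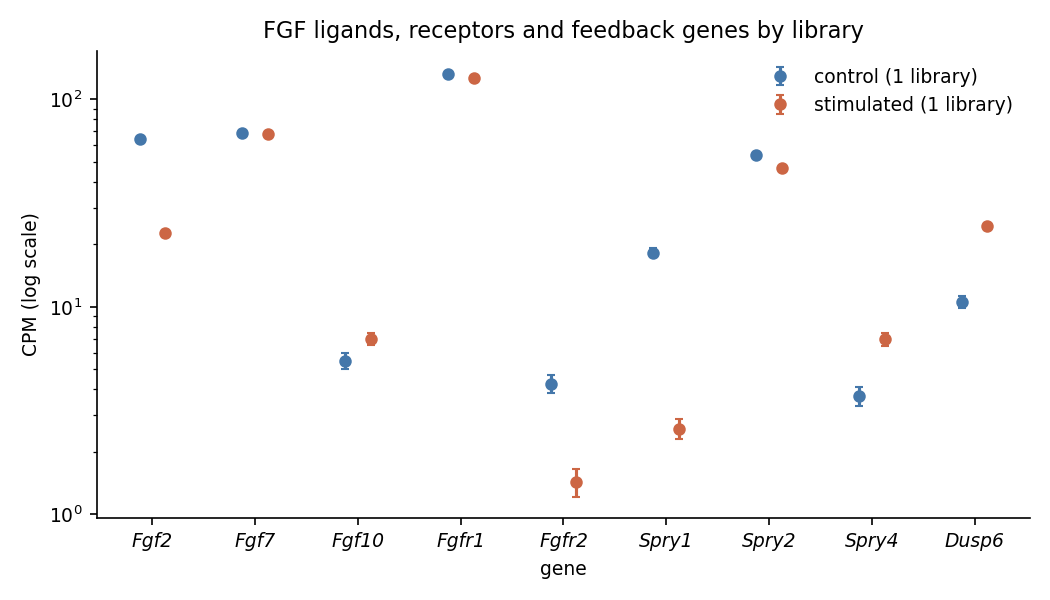
Level of the 9 genes in CPM (log axis) in the control library (blue) and the stimulated library (orange), 1 library each; bars are 95% Poisson intervals. Fgf2, Fgfr2 and Spry1 sit lower in the stimulated library, Spry4 and Dusp6 sit higher, and Fgf7 and Fgfr1 lie within 1.06-fold of each other between libraries.

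The ligand genes parted. Fgf2, which encodes a heparin-binding mitogen of fibroblasts and endothelium, was at 64.1 CPM in control cells and 22.6 CPM in stimulated cells, 2.84-fold lower (2.71 to 2.98). Thinning each cell to 5000 UMIs, which leaves 4077 control and 6708 stimulated cells deep enough, a UMI of Fgf2 was seen in 24.3% and 10.4% of cells (50.6% and 23.8% unthinned), against 8.40% of 131 control macrophage-like cells. In both libraries cells in cycle carried less of it: among fibroblast-like cells its level in cycling relative to other cells was 0.635 in control and 0.604 in stimulated cells. Of the fibroblast-like cells scored, 1122 of 3681 control and 3070 of 6072 stimulated cells were in cycle, and among all kept cells not in cycle Fgf2 was still lower, with a fold of 0.398. The gene Nudt6 lies on the opposite strand over the end of Fgf2 and shares 4.62% of the windows at its 3′ ends, and whether the counting used strand is not stated. Nudt6 was at 5.24 and 5.43 CPM, within 1.04-fold of each other.

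Fgf7, the epithelial growth factor of lung mesenchyme, was at 69.0 CPM in control cells and 68.2 CPM in stimulated cells, a fold of 0.988 (0.956 to 1.02). At 5000 UMIs 26.8% and 27.4% of cells carried a UMI of it (55.0% and 54.1% unthinned). In control macrophage-like cells, which should lack the gene, the share was 5.34% of 131 cells against 28.6% of control fibroblast-like cells, at median depths of 10591 and 21439 UMIs.

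Fgf10, the ligand that drives branching of the lung bud, was at 5.49 CPM and 6.98 CPM, a fold of 1.27 (1.14 to 1.43). In fibroblast-like clusters the levels were 5.69 and 5.82 CPM, a fold of 1.02 (0.906 to 1.16). That set leaves out stimulated cluster 12, which is rich in Fgf10 and unnamed, but keeps its control counterpart, cluster 1; with cluster 12 added the fold was 1.23 (1.10 to 1.39). Fgf10 UMIs were found in 2.40% of control and 3.59% of stimulated cells at 5000 UMIs (7.63% and 9.43% unthinned). None of 131 macrophage-like cells had one, which allows a share of up to 2.29% by 3 counts and 2.78% by the exact binomial limit, so the control share is not clear of background.

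The receptor genes differed in the size of their folds. Fgfr1, the main FGF receptor gene of mesenchyme, was at 133 CPM in control cells and 126 CPM in stimulated cells, a fold of 0.950 (0.927 to 0.973), and was seen in 46.6% and 45.3% of cells at 5000 UMIs (77.1% and 74.7% unthinned), against 19.1% of macrophage-like cells. Fgfr2 was at 4.26 and 1.43 CPM, 2.99-fold lower (2.48 to 3.61), from 377 and 167 UMIs. Tags at 3′ ends do not tell the epithelial from the mesenchymal splice form of Fgfr2, and its annotated span in GENCODE M21 runs across other genes. At 5000 UMIs 2.31% of control and 0.745% of stimulated cells carried an Fgfr2 UMI (7.53% and 2.16% unthinned), and 2 of 131 macrophage-like cells did, a share of 1.53% (0.185 to 5.41%). That interval is wide and holds the shares of both libraries, so over all cells Fgfr2 could not be told from background at this depth. By cluster it was at 9.24 CPM (7.07 to 11.9) in control cluster 4 and 8.26 CPM (6.31 to 10.6) in control cluster 1, against 2.30 CPM (0.627 to 5.90) in macrophage-like cells.

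The feedback genes differed in both directions. Dusp6, the ERK phosphatase gene, was at 10.5 CPM in control cells and 24.4 CPM in stimulated cells, 2.31-fold higher (2.15 to 2.49). Spry4 was at 3.70 and 6.96 CPM, 1.88-fold higher (1.65 to 2.14). Spry1 went the other way, at 18.2 CPM and 2.59 CPM, 7.05-fold lower (6.23 to 7.99). Spry1 thus showed the largest fold of the 9 genes, and Spry4 and Spry1 encode proteins of the same family. Spry2 was at 54.2 and 46.4 CPM, a fold of 0.857 (0.824 to 0.891), and is treated separately below because its counts followed another pattern.

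The shares of cells with a UMI followed the levels. At 5000 UMIs Dusp6 was seen in 5.35% of control and 11.3% of stimulated cells, Spry4 in 1.69% and 3.76%, and Spry1 in 8.66% and 1.36%. Unthinned, the shares were 14.8% and 27.3%, 6.34% and 9.60%, and 24.0% and 3.79%. In control macrophage-like cells Spry4 was seen in 0.763% (0.0193 to 4.18%) and Spry1 in 3.82% (1.25 to 8.68%). The Spry1 value is above its stimulated share. Both intervals are wide and hold the shares of both libraries, so at this depth neither gene's shares could be told from background. Any of the 4 feedback genes was seen in 29.6% of control cells (28.2 to 31.0%) and 29.7% of stimulated cells (28.6 to 30.8%), a difference of 0.140 percentage points (-1.64 to 1.92), and in 63.7% and 58.4% unthinned. Without Spry2 the shares were 15% and 15.7%. With Spry4 or Dusp6 alone they were 6.82% and 14.5%, a difference of 7.70 points (6.56 to 8.85), and in fibroblast-like cells 5.95% and 13.6%. The choice of these subsets of genes was made after their values were seen.

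The stretch before the transcription start of Dusp6 and Spry1 is shown because these feedback genes had the largest folds in opposite directions. Both are the 250 bases before the start in RefSeq's promoter table (GRCm38.p6), Dusp6 at chr10:99262981-99263230 and Spry1 at chr3:37639697-37639946, both on the plus strand, and 7 of the 9 members had an entry. Capitals mark matches, on either strand, to the ETS core motif CCGGAA or the related motif AGGAAG, the AP-1 motif TGANTCA, the CRE motif TGACGTCA or the SP1 motif GGGCGG.
Dusp6: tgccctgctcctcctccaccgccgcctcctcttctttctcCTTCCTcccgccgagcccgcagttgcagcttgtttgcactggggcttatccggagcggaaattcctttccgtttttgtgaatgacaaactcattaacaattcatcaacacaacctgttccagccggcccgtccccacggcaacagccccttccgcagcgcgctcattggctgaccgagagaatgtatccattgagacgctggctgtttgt
Spry1: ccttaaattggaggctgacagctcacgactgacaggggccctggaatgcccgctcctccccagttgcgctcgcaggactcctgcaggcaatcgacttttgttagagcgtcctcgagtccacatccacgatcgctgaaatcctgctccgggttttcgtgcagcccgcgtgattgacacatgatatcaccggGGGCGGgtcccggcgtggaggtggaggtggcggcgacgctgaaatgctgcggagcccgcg
Dusp6 held 1 match, to AGGAAG on the minus strand, its first base 210 bases before the start, and 29.5% of all 32851 listed promoters hold that motif in the same window. Spry1 held 1 match, to GGGCGG, 60 bases before the start, which 32.7% of promoters hold. The motif CCGGAA, held by 12% of promoters, was in neither window, nor was TGANTCA, held by 6.75%, nor TGACGTCA, held by 1.55%. A match is a description of letters and no measure of binding.

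Within each library the members varied between clusters, and Fgf2, Fgf10, Fgf7, Dusp6 and Spry4 were high in the same pair of clusters. Clusters are described by their leading genes, their levels are descriptions with no test, and clusters of the libraries were paired by shared leading genes after these were seen. Control cluster 1 and stimulated cluster 12 share Hsd3b6 and Gzme as leading genes; cluster 12 is unnamed because the smooth muscle gene Des is also among them. Fgf10 was at 20.5 CPM (17.4 to 24.1) in control cluster 1 and 20.9 CPM (18.1 to 24.1) in stimulated cluster 12, against 3.82 and 6.96 CPM in the largest clusters, 0 and 9, led by Meg3. Fgf7 was at 104 and 117 CPM in these clusters, against 70.2 and 67.3 CPM in clusters 0 and 9. Dusp6 was at 21.9 and 50.2 CPM there, against 7.71 and 22.6 CPM, and Spry4 at 7.02 and 13.9 CPM, against 3.41 and 6.54 CPM. Fgf2 was at 112 and 42.4 CPM in clusters 1 and 12, against 70.7 and 25.8 CPM in clusters 0 and 9. These levels of Fgf2, Fgf10, Fgf7, Dusp6 and Spry4 in cluster 1 were the highest of the 5 control fibroblast-like clusters. Those in cluster 12 were above all 3 stimulated fibroblast-like clusters. Fgfr1 was also highest of the 5 in cluster 1, at 170 CPM, but in cluster 12, at 132 CPM, it was below cluster 9, at 141 CPM. Spry1 did not follow, at 18.9 CPM in cluster 1 and 2.52 CPM in cluster 12, against 21.8 and 2.48 CPM in clusters 0 and 9. Spry2 differed by library. In cluster 1, at 29.7 CPM, it was lowest of the 5 control clusters. In cluster 12, at 51.1 CPM, it was above all 3 stimulated fibroblast-like clusters.

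Control cluster 4, led by Lum and Dcn, held Fgf10 with low Dusp6, Spry4 and Spry1. Its Fgf10 level was 12.3 CPM (9.75 to 15.3), second to cluster 1 among control clusters of at least 50 cells, and its Fgfr2 level 9.24 CPM. Dusp6 was at 4.39 CPM and Spry4 at 1.36 CPM there, the lowest of the 5 control fibroblast-like clusters, and Spry1 at 8.79 CPM likewise, whereas Spry2, at 70.6 CPM (64.4 to 77.3), was the highest of the 5. No stimulated cluster shared its leading genes.

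**Figure D2:**
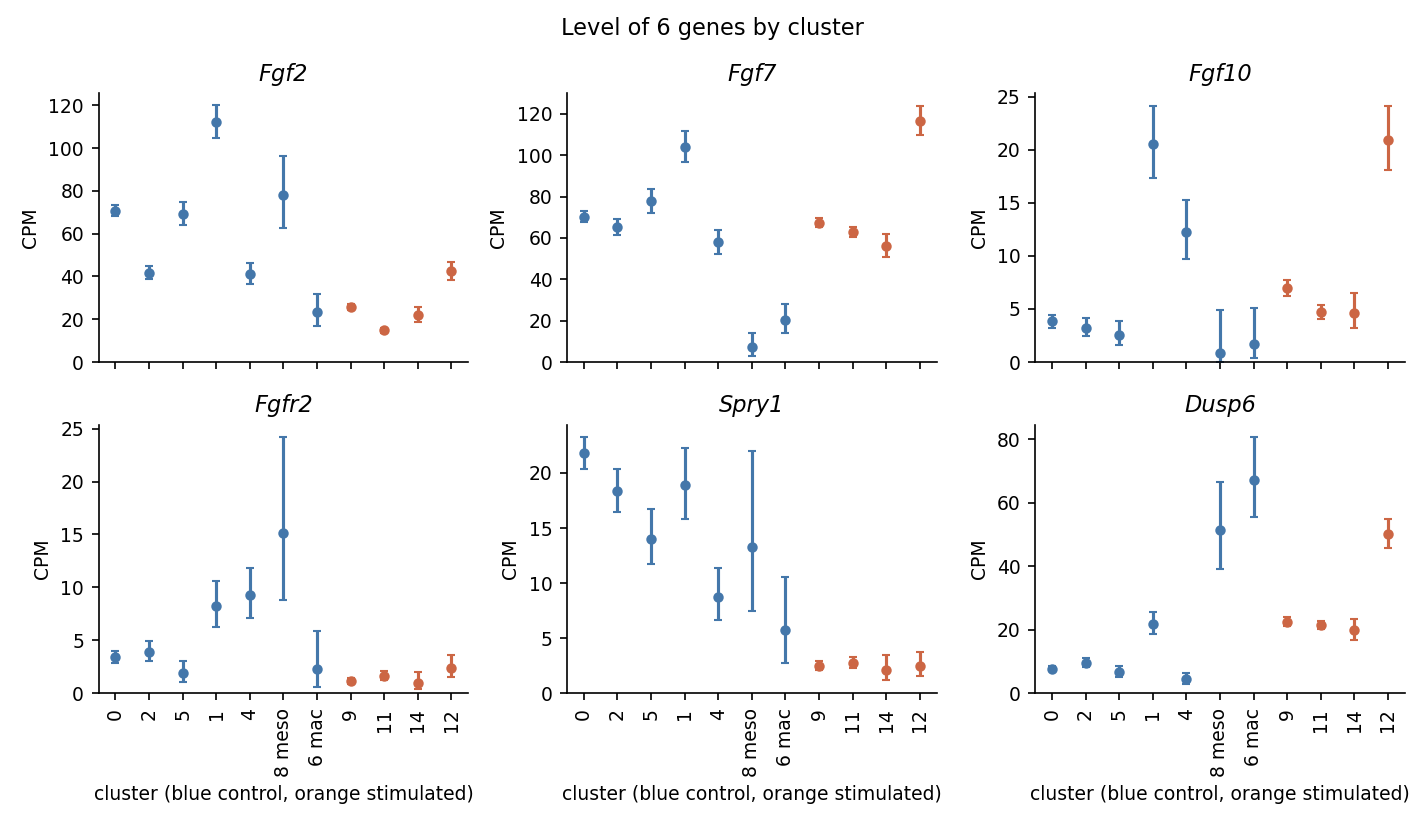
Level in CPM of 6 genes in control clusters (blue) and stimulated clusters (orange), bars being 95% Poisson intervals; meso marks the mesothelial-like and mac the macrophage-like control cluster. Fgf2, Fgf7 and Fgf10 peak in control cluster 1 and stimulated cluster 12, Spry1 is lower in every stimulated cluster shown than in control clusters 0, 1, 2, 4 and 5, and Dusp6 is highest in the macrophage-like cluster.

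Cells of other types carried members too. In the 150 macrophage-like control cells Dusp6 was at 67.3 CPM (55.7 to 80.7), the highest of the control clusters, and at 5000 UMIs 33.6% of them had a Dusp6 UMI, against 4.37% of control fibroblast-like cells. The stimulated library had 1 macrophage-like cell, and in fibroblast-like clusters alone Dusp6 was at 8.995 and 21.9 CPM, 2.44-fold higher (2.24 to 2.65). Mesothelial-like cells, 57 control and 23 stimulated ones, showed Dusp6 at 51.5 and 92.2 CPM and Spry4 at 14.2 CPM (8.12 to 23.1) and 43.0 CPM (26.6 to 65.7). Fgfr2 was at 15.1 CPM (8.79 to 24.2) in the control mesothelial-like cells, and Fgf7 at 7.10 CPM. Fgf10 had 1 UMI in them, which is under the floor of 3 counts.

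Spry2 stood apart from the other feedback genes. It was a leading gene of control cluster 3 (435 cells, median 1843 UMIs) and stimulated cluster 13 (641 cells, median 1745 UMIs), unnamed shallow clusters that also share Actb, Notch2, Hsf2 and Slc39a1 as leading genes. There Spry2 was at 564 CPM in control cells and 326 CPM in stimulated cells, while in other clusters it was at 9.46 to 73.7 CPM. Spry1, Spry4 and Dusp6 were at 15.6, 3.89 and 9.35 CPM in cluster 3, and so within the range of the other control clusters.

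Over all kept cells, the shallow clusters included, Spry2 followed the Actb share of a cell. Cells were binned by the share of their UMIs that came from Actb, the cytoplasmic beta-actin gene, whose median was 0.460% in control and 0.327% in stimulated cells but whose 99th percentile was 10.5% and 7.66%. In the control library Spry2 was at 25.4 CPM in cells with under 0.5% Actb, 35.5 CPM from 0.5 to 1%, 103 CPM from 1 to 2%, 217 CPM from 2 to 5% and 439 CPM at 5% or more. In the stimulated library the same bins gave 23.9, 50.7, 142, 183 and 376 CPM. In the control library the median depth was 21215.5 UMIs under 0.5% Actb, 18876 UMIs from 2 to 5% and 1967 UMIs at 5% or more. In the stimulated library the same bins had median depths of 15942, 4881 and 1556 UMIs. The highest Spry2 level of each library thus came from its shallowest bin. Depths were matched neither between bins nor within them. Across the same bins Spry4 stayed at 3.14 to 5.49 CPM in control cells and 5.29 to 7.61 CPM in stimulated cells, and Dusp6 at 9.10 to 13.4 and 23.6 to 27.4 CPM. Cells with at least 1% Actb were 24.8% of control cells and held 56.9% of their library's Spry2 UMIs with 16.7% of all UMIs; in the stimulated library they were 19.8% of cells and held 47.4% of Spry2 UMIs with 13% of all.

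**Figure D3:**
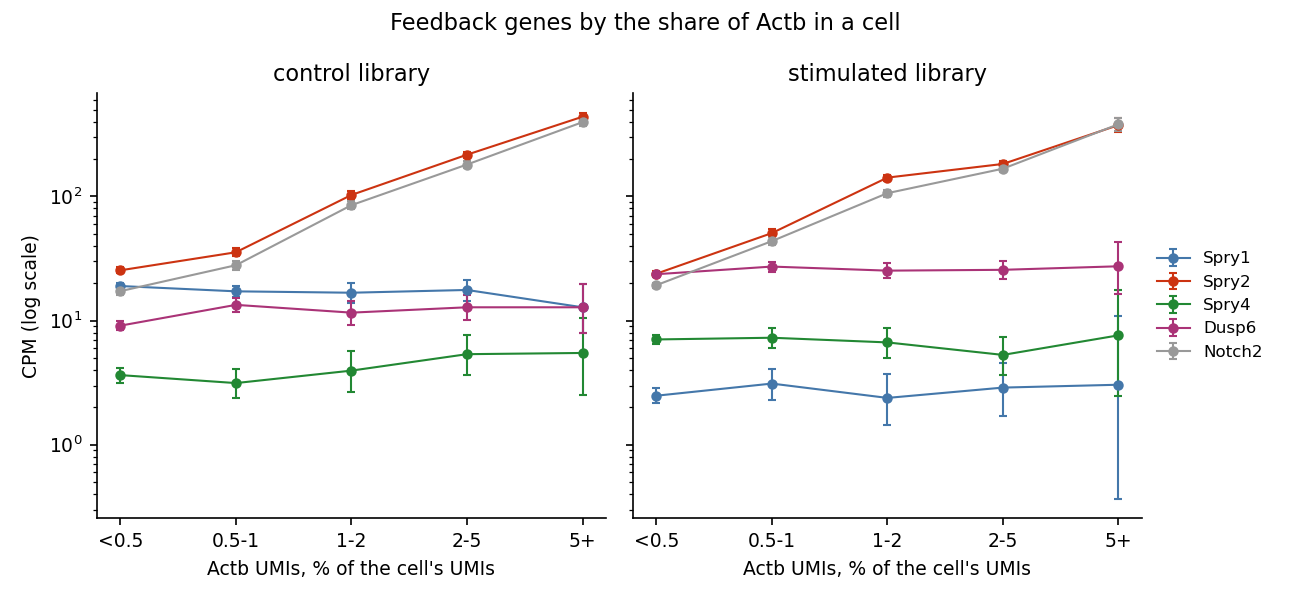
Level in CPM (log axis) of the 4 feedback genes and of Notch2 in cells binned by the percent of their UMIs from Actb, control library left, stimulated library right, with 95% Poisson intervals. Spry2 and Notch2 climb together from 25.4 and 17.3 CPM to 439 and 397 CPM in the control library, whereas Spry1, Spry4 and Dusp6 do not follow.

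Genes ranked by likeness to the summed feedback genes gave the same set, a sum that in the top control cells was mostly Spry2. Fibroblast-like cells thinned to 5000 UMIs were split by their summed Spry1, Spry2, Spry4 and Dusp6 UMIs, and 3562 other genes were ranked by their level in cells with 3 or more of these UMIs over cells with 0, taking the smaller ratio of the libraries. Notch2 came first (4.76 in control, 5.40 in stimulated cells), then Slc39a1 (4.98 and 4.68), Actb (3.99 and 3.84), Alkbh5 (3.59 and 3.33), Ttyh2, Pam, Wtap and Dctn4. None of these 8 genes is on the pathway lists used here, and the median ratio of all ranked genes was 0.975 and 0.998. The control cells with 3 or more of the summed UMIs held 230 of Spry2, 35 of Spry1, 12 of Spry4 and 19 of Dusp6. Actb was 2.12 and 2.25 times as high in control and stimulated cells with a Spry2 UMI as in those without. For Spry1 these ratios were 0.970 and 0.832, for Spry4 1.40 and 0.780, and for Dusp6 1.13 and 1.04. No window at the 3′ end of Spry2 matched another listed gene. What sets this shared pattern was not tested.

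Where cells had under 0.5% Actb, Spry2 was at 25.4 CPM in control cells and 23.9 CPM in stimulated cells, a fold of 0.939 (0.876 to 1.01). The other members had folds of 2.60 for Dusp6, 1.94 for Spry4, 0.131 for Spry1 and 0.377 for Fgf2 in those cells. Split by Spry4 and Dusp6 UMIs alone, 0 against at least 1, the ranking no longer held Actb or Notch2 among its first 8 genes. It then began with Des (2.07 and 1.59), Mcpt8 (2.89 and 1.52) and Cck (1.79 and 1.43), of which Mcpt8 is a leading gene of the Hsd3b6 clusters. This split was chosen after the first ranking was seen.

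Whether Spry4 was higher in cells with a Dusp6 UMI was read at 5000 UMIs per cell. In control fibroblast-like cells with a Dusp6 UMI Spry4 was at 9.94 CPM against 3.64 CPM in the others, a ratio of 2.73 (1.13 to 5.72), and in stimulated cells at 8.68 against 6.93 CPM, a ratio of 1.25 (0.811 to 1.87). Fgf2 was 1.55 times as high in control cells with a Dusp6 UMI (1.23 to 1.93), and in stimulated cells the ratio was 1.05 (0.819 to 1.34). For Fgf7 the ratios were 1.29 (1.01 to 1.62) in control and 1.195 (1.04 to 1.36) in stimulated cells. The intervals of the other members held 1 in both libraries. These ratios rest on 161 and 645 cells with a Dusp6 UMI, and the difference between libraries was not tested. Splitting cells by summed Fgf7 and Fgf10 UMIs instead, Limch1 (2.28 and 1.69), Mcpt8 (3.24 and 1.61), Grem1 (1.29 and 1.497), Fst and Dkk3 varied most like this sum. It mostly followed Fgf7, as 1051 control and 1608 stimulated cells had an Fgf7 UMI, against 97 and 186 with an Fgf10 UMI. Limch1 and Mcpt8 are leading genes of the Hsd3b6 clusters, and Grem1 and Fst encode antagonists of BMP and activin ligands.

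The folds were then taken between clusters paired by shared leading genes, which are as few as 2 of 10 for clusters 0 and 9 and for clusters 5 and 14, so the cells of a pair need not be alike. Dusp6 was at least 2.22-fold higher in each of the 4 deep pairs: 2.93-fold between the Meg3 clusters 0 and 9, 2.22-fold between the cycling clusters 2 and 11, 2.29-fold between the Hsd3b6 clusters 1 and 12, and 3.03-fold between clusters 5 and 14, which share Ctsl and Renbp. Spry1 was lower in all 4 pairs, with folds from 0.114 to 0.151, and so was Fgf2, with folds from 0.318 to 0.377. Spry4 had folds of 1.92, 1.60, 1.98 and 1.401 in the same order, the last with an interval of 0.813 to 2.43. Fgf10 had folds of 1.82 (1.51 to 2.21), 1.45 (1.085 to 1.97), 1.02 (0.818 to 1.27) and 1.82 (1.035 to 3.24). The last of these rests on 23 control and 33 stimulated UMIs. Control cluster 4, with Fgf10 at 12.3 CPM, is fibroblast-like but in no pair. Spry2 had a fold of 1.72 (1.46 to 2.03) between the Hsd3b6 clusters and at most 0.981 in the other 3 pairs.

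**Figure D4:**
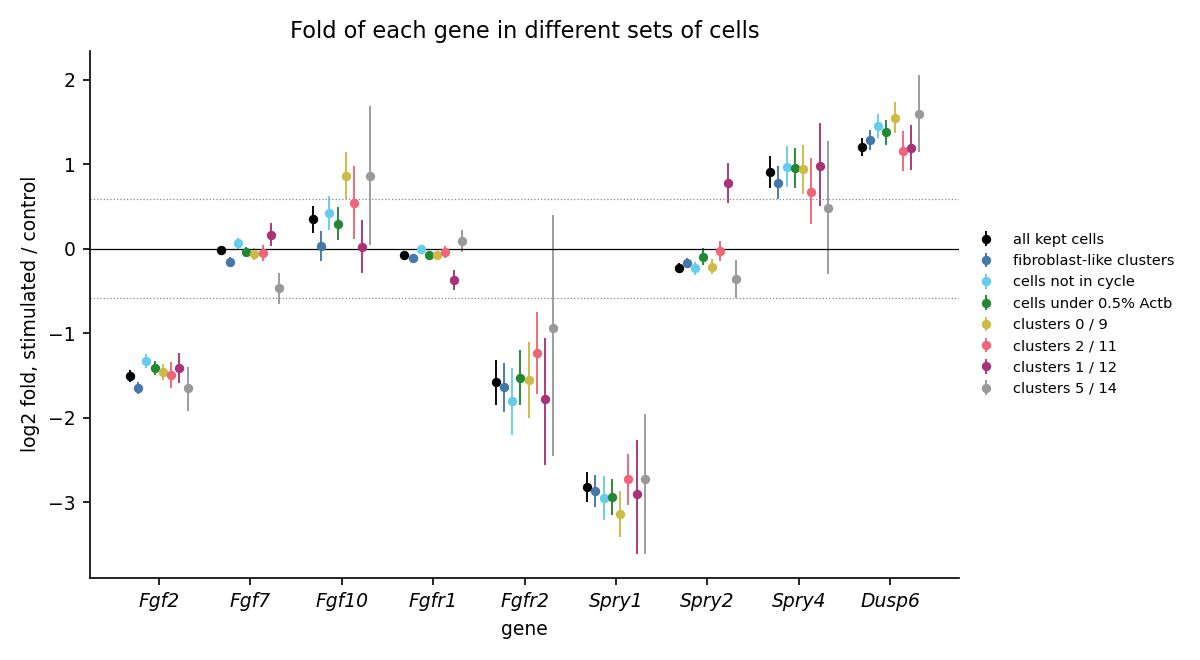
Log2 fold of the stimulated over the control library for each gene in 8 sets of cells, with 95% conditional-Poisson intervals; dotted lines mark 1.5-fold. Fgf2 and Spry1 lie below the lower line and Dusp6 above the upper line in each set, while Spry2 and Fgf10 change place with the set of cells.

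Fgf2 was the member with the lowest ratio of cycling to other cells in stimulated cells, and the feedback genes differed less. Among stimulated fibroblast-like cells, 3070 in cycle and 3002 not, Dusp6 was at 21.4 and 22.5 CPM, Spry4 at 6.34 and 6.15 CPM and Spry1 at 2.66 and 2.46 CPM. Among control cells Dusp6 was higher in cycling cells, at 11.1 against 7.995 CPM, a ratio of 1.39 (1.19 to 1.61), and Spry2 lower, at 43.1 against 50.3 CPM, a ratio of 0.858 (0.800 to 0.919). Among all kept cells in cycle the stimulated over control fold of Dusp6 was 1.80 (1.60 to 2.02), below its 2.74 (2.48 to 3.02) in the others. Fgf10 was lower in cycling cells of both libraries, with ratios of 0.609 (0.486 to 0.758) and 0.753 (0.640 to 0.885).

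Around the 9 genes, 105 further genes of the pathway were taken in 7 lists by role. Of the 68 that reached a mean of 5 CPM, 21 were at least 1.5-fold higher and 13 lower, 30.9% and 19.1% beside 7.75% and 12% of all genes. Their median log2 fold was -0.03 and that of all genes -0.06.

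Inhibitors of the cascade other than the 4 members were mostly higher. Of 11 measured, 7 were higher and none lower (63.6% and 0%), beside 7.75% and 12% of all genes. Their median log2 fold was 0.62 beside -0.06 for all genes. At 2-fold 3 of the 11 inhibitors were higher and none lower, beside 3.30% and 5.05% of all genes. Errfi1, which encodes an inhibitor of EGF receptors, was at 64.1 and 244 CPM, 3.80-fold higher (3.70 to 3.91). Spred1, a Sprouty-related inhibitor of RAF activation, was at 39.0 and 66.2 CPM, 1.70-fold higher (1.63 to 1.77), and the RAS GTPase activator gene Rasa1 at 33.5 and 50.8 CPM, 1.52-fold higher (1.45 to 1.59). Dusp4, Dusp5, Dusp7 and Lrig1 were also higher, and Dusp5, an ERK phosphatase gene of the nucleus, was at 9.94 and 22.3 CPM; these were named as the rest of the count of 7. Spry3, Dusp9 and Il17rd were below the mean of 5 CPM.

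Genes known to respond to ERK were split, with more higher than lower. Of 15 measured, 8 were higher (53.3%) and 2 lower (13.3%), beside 7.75% and 12% of all genes, with a median of 0.60. The share lower was thus near that of all genes. Egr2 was at 3.00 and 17.5 CPM, 5.82-fold higher (5.12 to 6.63), and passed the mean only through the stimulated library. The G1 cyclin gene Ccnd1 was at 49.5 and 270 CPM, 5.46-fold higher (5.29 to 5.64), though 21.2% of its 3′ end windows match LTO1. Hmga2, a chromatin protein gene, was at 111 and 321 CPM, 2.89-fold higher (2.83 to 2.96), and Emp1 at 151 and 209 CPM with a fold of 1.38. The ETS factor genes Etv4 and Etv5, known targets of FGF signalling, were at 10.9 and 26.9 CPM and at 11.5 and 19.0 CPM; they were named after their values were seen. The 2 lower genes were Phlda1, at 190 and 101 CPM, and the urokinase receptor gene Plaur, at 54.0 and 15.9 CPM.

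Among cells not in cycle 7 of 11 inhibitors and 8 of 15 ERK-responsive genes were still higher, beside 7.54% of all genes. In fibroblast-like clusters the counts were 6 of 11 and 7 of 15, where 8.01% of 8753 genes were that much higher and 12.6% lower. Between the Hsd3b6 clusters 1 and 12, 6 of 11 inhibitors were higher and 1 lower, and 5 ERK-responsive genes were higher and 4 lower, with a median of 0.25. Over all genes that pair gave 5.83% higher and 17.1% lower, with a median of -0.19.

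Counts for the steps between receptor and ERK were small in both directions and are read beside the 7.75% and 12% of all genes. Of 10 adaptor genes measured, none was higher and Gab2 and Sos1 were lower, with a median of -0.45 (1 higher and 1 lower with TMM scaling, median -0.34), and Grb2, the adaptor that carries SOS to the receptor complex, was at 74.2 and 54.5 CPM. Of 12 RAS and MAP kinase genes Ksr1 was higher and Braf and Map2k1 lower, with a median of -0.34. Ksr1 passed the mean of 5 CPM only through the stimulated library, and Gab2 only through the control library. Map2k1, a kinase of ERK, was at 90.6 and 36.9 CPM, 2.46-fold lower (2.37 to 2.55), whereas Map2k2 was at 264 and 199 CPM and Mapk3 (ERK1) at 104 and 101 CPM. Hras was at 180 and 149 CPM.

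Genes for the heparan sulfate that presents FGFs differed in both directions. Of 10 modifiers of its chains, 4 were lower and 2 higher (40% and 20%), beside 12% and 7.75% of all genes. With all deposited barcodes 1 was higher. Sulf2, which encodes a sulfatase that trims 6-O-sulfates from the chains, was at 5.22 and 26.6 CPM, 5.09-fold higher (4.62 to 5.63), and its paralog Sulf1, named after its values were seen, at 60.7 and 24.1 CPM. Ext1, a chain polymerase gene, was at 150 and 52.1 CPM, 2.87-fold lower (2.79 to 2.96), and Ext2, which encodes its partner subunit, at 47.5 and 48.5 CPM. Among receptors and co-receptors, 2 of 9 were higher and 3 lower (22.2% and 33.3%), beside 7.75% and 12% of all genes. Of these, Gpc6 passed the mean of 5 CPM only through the control library. The syndecan genes Sdc4 and Sdc1, core proteins that carry the chains, were 2.01-fold (1.98 to 2.04) and 1.85-fold (1.79 to 1.92) higher, and the glypican gene Gpc4 was at 66.7 and 16.7 CPM, 4.00-fold lower (3.80 to 4.21). Sdc2 was at 61.1 and 54.1 CPM.

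**Figure D5:**
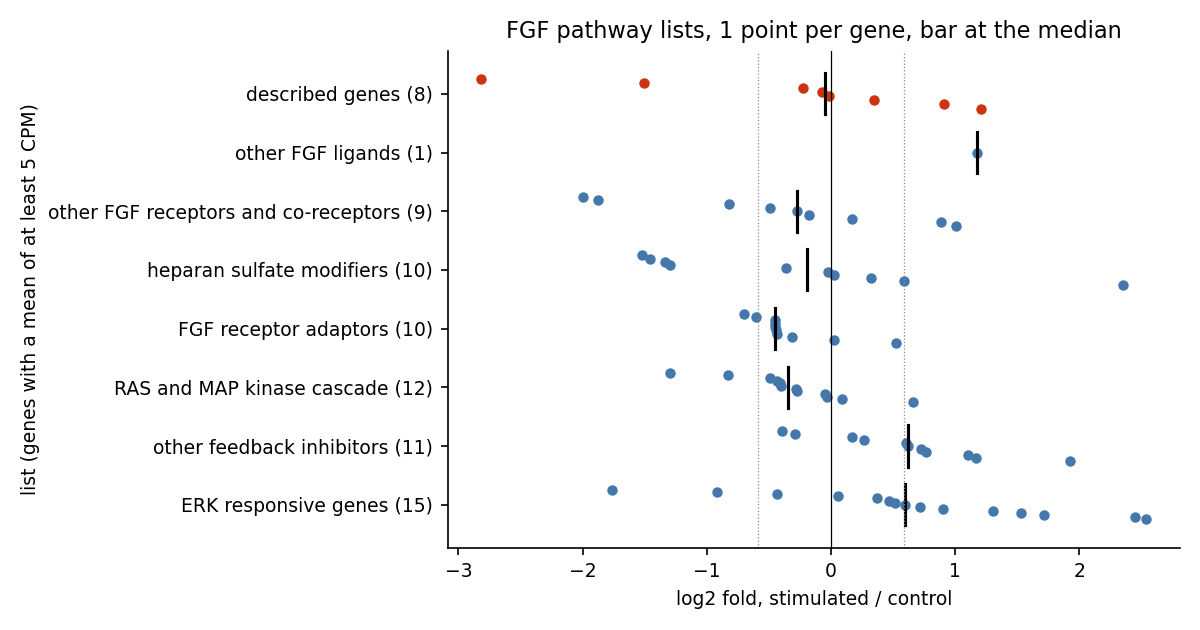
Log2 fold of the stimulated over the control library for each gene with a mean of at least 5 CPM, by list, with the number of genes in brackets; the 9-gene set is red (8 genes measured), black bars are medians and dotted lines mark 1.5-fold. The medians of the feedback inhibitors and ERK-responsive genes stand at 0.62 and 0.60, those of adaptors and kinases at -0.45 and -0.34.

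Of 19 other FGF ligand genes 1, Fgf18, reached a mean of 5 CPM, and it did so through the stimulated library. Fgf18, a ligand made by lung mesenchyme, was at 3.67 and 8.29 CPM, 2.26-fold higher (1.99 to 2.57), but between the Hsd3b6 clusters its fold was 0.883. Fgf1 was at 0.610 and 1.25 CPM and Fgf11 at 0.700 and 0.802 CPM. Fgf9, a ligand that signals from lung epithelium and mesothelium to mesenchyme, was named after its values were seen. It had 101 control UMIs and 2 stimulated UMIs, 66.8-fold lower (18.0 to 559), with the stimulated count under the floor of 3 counts. Its control UMIs were spread over clusters, with 4 of them in mesothelial-like cells, which held 1126121 UMIs of all genes. Fibroblast-like cluster 0 had 47 (1.14 CPM) among 41372419 UMIs, out of 88573140 UMIs in kept control cells.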

How the data were processed

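Cultured lung fibroblasts were measured in 2 libraries, control and stimulated, grouped by their titles. The authors deposited raw UMI counts per gene and barcode. Per the file headers the matrices carry software version 3.0.2, while Cell Ranger 1.3.1 and Seurat 3.0.0 appear in the submitters' processing notes. Which build, annotation and barcode filter were used is not stated in any source used here. Members and lists were chosen with earlier results of these data known.

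Barcodes with at least 500 genes and at most 20% mitochondrial UMIs were kept (313 control and 230 stimulated left out). No doublet caller was run, so doublets remain. Cells were clustered together without integration (scanpy 1.11.5; 2000 variable genes, 30 components, 15 neighbours, Leiden resolution 0.5). A cluster was named if at least 3 markers were seen in at least 25% of cells and, other than for fibroblasts, at least 2 led it. It was not called fibroblast-like if more markers of another type led it. A cluster far below its library's median depth stayed unnamed unless a marker of its type led it. Clusters 3, 7, 10 and 13, which hold fibroblast markers, were unnamed for this reason, so fibroblast-like sets leave out these shallow cells. Summed counts gave CPM, folds and exact conditional-Poisson intervals; thinning to 5000 UMIs gave shares with exact binomial intervals. Cells with at least 2 UMIs of 12 cycling genes at 5000 UMIs counted as in cycle. TMM factors came from edgeR 4.0.16. The fold code was tested on simulated data.

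Named genes were the members, the 3 most abundant genes and the largest fold of each list, and the genes ranked most like them; others are marked. GENCODE M21, whose build may differ from the authors', held 99.0% of gene IDs and gave the 3′ end windows (90 nt, at most 2 mismatches, minimap2 2.31). Alternatives are in the closing section.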

Additional observations from a re-analysis of the deposited data

How the results depend on the processing

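With 1 library per group the depth limits Fgf10, Fgfr2 and Spry4 most, and no setting stands in for a replicate. No paired analysis was possible because each group has 1 library. Over 17 alternatives (16 for Fgfr2) Dusp6 kept a fold of 2.11 to 3.03, Spry1 of 0.0952 to 0.154 and Fgf2 of 0.318 to 0.398, and Spry4 ranged from 1.401 to 2.14 (1.5-fold or more in 16). Cells in cycle alone, not among these alternatives, gave 1.80 for Dusp6. Fgf10 ranged from 1.02 to 1.82 and Spry2 from 0.578 between the shallow clusters to 1.72 between clusters 1 and 12. The alternatives by cluster pair, by Actb, without other cell types and without shared barcodes were chosen after seeing the data; without shared barcodes every count was as in the main setting.

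The count of members higher (2) was 0 under a filter of 20 CPM on the mean, which 4 members pass, and 1 at 2-fold, in fibroblast-like clusters (where Spry4 misses the mean of 5 CPM), between clusters 5 and 14 and between clusters 3 and 13. It was 3 between clusters 1 and 12. The count lower (2) was 1 at 20 CPM and 3 with no filter, between clusters 1 and 12 and between clusters 3 and 13. Of the other pathway genes, 9 were higher at 20 CPM and 11 at 2-fold, and 20 were lower with no filter and 8 at 2-fold. Over all genes 5.97% were higher at 20 CPM and 3.30% at 2-fold, and 22.1% were lower with no filter and 5.05% at 2-fold. Between clusters 3 and 13, 21.6% of all genes were higher and 22.5% lower, so counts there are read beside those shares. The median log2 fold of the members was 0.058 with TMM, -0.15 at 20 CPM, -0.15 in fibroblast-like clusters, -0.41 between clusters 5 and 14 and -0.35 between 3 and 13. The share of cells with any feedback UMI differed by -2.59 points at 3000 UMIs, -5.28 without thinning, 7.70 for Spry4 or Dusp6 alone and 7.62 for these in fibroblast-like clusters. Of 26 other named genes, 4 values of 441 changed direction: Fgf18 (0.883) between clusters 1 and 12, and Fgf18 (0.952), Fgf1 (0.952) and Rasa1 (0.994) between 3 and 13. The cause of these moves was not tested, other than where fewer genes or cells enter.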
